A study of Mus musculus with 2 samples.

Results

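The genes described are the translation initiation and elongation factors of the mouse: 68 genes whose symbol begins with Eif and a digit from 1 to 6, or with Eef and the digit 1 or 2, and continues in lower-case letters and digits. The kinase gene Eif2ak2 was left out by that rule. The 68 genes were taken from the 55536 genes of the annotation, and comprised 55 Eif genes, called initiation factors here, and 13 Eef genes, called elongation factors. The rule read the symbols and used no measured value. Symbols do not follow function throughout: eIF5A acts in elongation, several Eif genes encode kinases or inhibitors of initiation, and the Eef1akmt, Eef2k and Eef2kmt genes encode enzymes that modify elongation factors, so a grouping by role is given beside the grouping by symbol.

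RNA came from a nuclear fraction of macrophages grown from C57BL/6J bone marrow, after 10 min with Lipid A at 100 ng/ml, and was sequenced after removal of ribosomal RNA. Lipid A is the part of bacterial lipopolysaccharide that activates Toll-like receptor 4. Labels in different fields call the fraction nucleoplasmic, nuclear or nucleus, so whether RNA bound to chromatin was included is not known. There was 1 group of 2 libraries, replicate 1 made from 1 µg and replicate 2 from 500 ng of RNA. Both received Lipid A for the same time, so no level here measures a response to it. The labels give separate biosamples with a shared donor identifier, and the spread between the libraries may be partly technical. With 1 library on each side of every difference, no p-value was computed.

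Initiation begins when eIF2, bound to GTP and the initiator tRNA, joins the small ribosomal subunit together with eIF1, eIF1A, eIF3 and eIF5. The eIF4F complex, made of the cap-binding protein eIF4E, the scaffold eIF4G and the helicase eIF4A, brings that subunit to the capped mRNA, and eIF5B joins the large subunit at the start codon. In elongation eEF1A delivers aminoacyl-tRNA, the eEF1B subunits recharge eEF1A with GTP, and eEF2 moves the ribosome along the mRNA. The proteins work in the cytoplasm, whereas the RNA measured here is nuclear, where transcripts that still hold introns are found beside finished mRNA.

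The expected counts assigned to annotated genes came to 19153465 in replicate 1 and 11622346 in replicate 2, and those of the 68 genes to 93972 in replicate 1 and 56611 in replicate 2. As a share of counts on protein-coding genes, this was 0.631% in replicate 1 and 0.638% in replicate 2. Levels are given in TPM, which divides counts by the effective length of the transcripts and scales them to the same total in each library, so that genes can be compared on it. The cell type label was checked with marker genes. All 8 macrophage markers were detected, with a summed level of 3528 TPM in replicate 1 and 2191 TPM in replicate 2. None of 19 markers of T cells, B cells, neutrophils, fibroblasts, endothelium and erythroid cells was detected. Their summed levels were 1.22 TPM in replicate 1 and 2.72 in replicate 2, and 4 of the 19 were at 0 in both.

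With a threshold of 1 TPM, reached in each library, 61 of the 68 genes were detected, against 23.6% of all genes and 46% of protein-coding genes. They were 51 of 55 initiation factors and 10 of 13 elongation factors. Eef1akmt4, which encodes a lysine methyltransferase of eEF1A, lay just inside the threshold with 1.60 TPM in replicate 1 and 1.00 in replicate 2. Eif5a2, the second eIF5A gene, stood at 1.27 TPM in replicate 1 and 1.21 in replicate 2. Just outside lay Eef1akmt1, another eEF1A methyltransferase gene, with 1.70 TPM in replicate 1 and 0.93 in replicate 2, and Eif3j2, a second copy of the eIF3j gene, with 0.23 TPM in replicate 1 and 0.95 in replicate 2. Eef1akmt3 stood at 0.21 TPM in replicate 1 and 0.22 in replicate 2.

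The remaining undetected genes had almost no counts. Eif2c5, annotated as a long intergenic RNA and not a translation factor gene, had 1 count in replicate 1 and 0 in replicate 2. Eef1a2, the eEF1A gene known from muscle and neurons, Eif4e1b, the eIF4E gene known from germ cells, and Eif2s3y, the Y-linked copy of the eIF2γ gene, had 0 counts in both libraries. For Eef1a2 a count of 0 allows 0.07 TPM at most in replicate 1 and 0.11 TPM at most in replicate 2. For Eif4e1b the limits were 0.18 TPM in replicate 1 and 0.27 in replicate 2, and for Eif2s3y 0.13 TPM in replicate 1 and 0.20 in replicate 2. By the authors' second quantification Eif2s3y and Eif4e1b stood above these limits, Eif2s3y with 0.18 TPM in replicate 1 and 0.57 in replicate 2. For both genes the posterior mean TPM, another estimate in the first quantification, also stood above the limits. It was 0.47 TPM in replicate 1 and 0.69 in replicate 2 for Eif2s3y, and 0.79 TPM in replicate 1 and 1.15 in replicate 2 for Eif4e1b. These limits, of 3 counts per library, thus hold only for the listed expected counts of 0. They take in counting error alone, because the reads carry no molecular identifiers and may repeat a molecule.

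Few genes carried most of the RNA. Eef1a1 alone held 22.6% of the summed TPM of the 68 genes in replicate 1 and 19.4% in replicate 2, and the 10 highest genes held 67.0% in replicate 1 and 67.1% in replicate 2. The initiation factors summed to 1474 TPM in replicate 1 and 1451 in replicate 2, and the elongation factors to 720 TPM in replicate 1 and 552 in replicate 2. The elongation sum rests on Eef1a1. The median detected initiation factor stood at 12.7 ± 1.42 TPM (SD, n = 2 libraries) and the median elongation factor at 10.6 ± 0.95 TPM, against 10.4 ± 0.65 TPM for detected protein-coding genes. The order of those medians depended on the grouping and on the quantification. With eIF5A counted among elongation factors, and kinases, inhibitors and modifying enzymes left out, the medians were 12.9 ± 1.58 TPM for 40 initiation genes and 34.9 ± 0.78 TPM for 7 elongation genes. By the authors' second quantification the symbol-based medians were 9.22 TPM for initiation and 10.4 TPM for elongation.

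**Figure D1:**
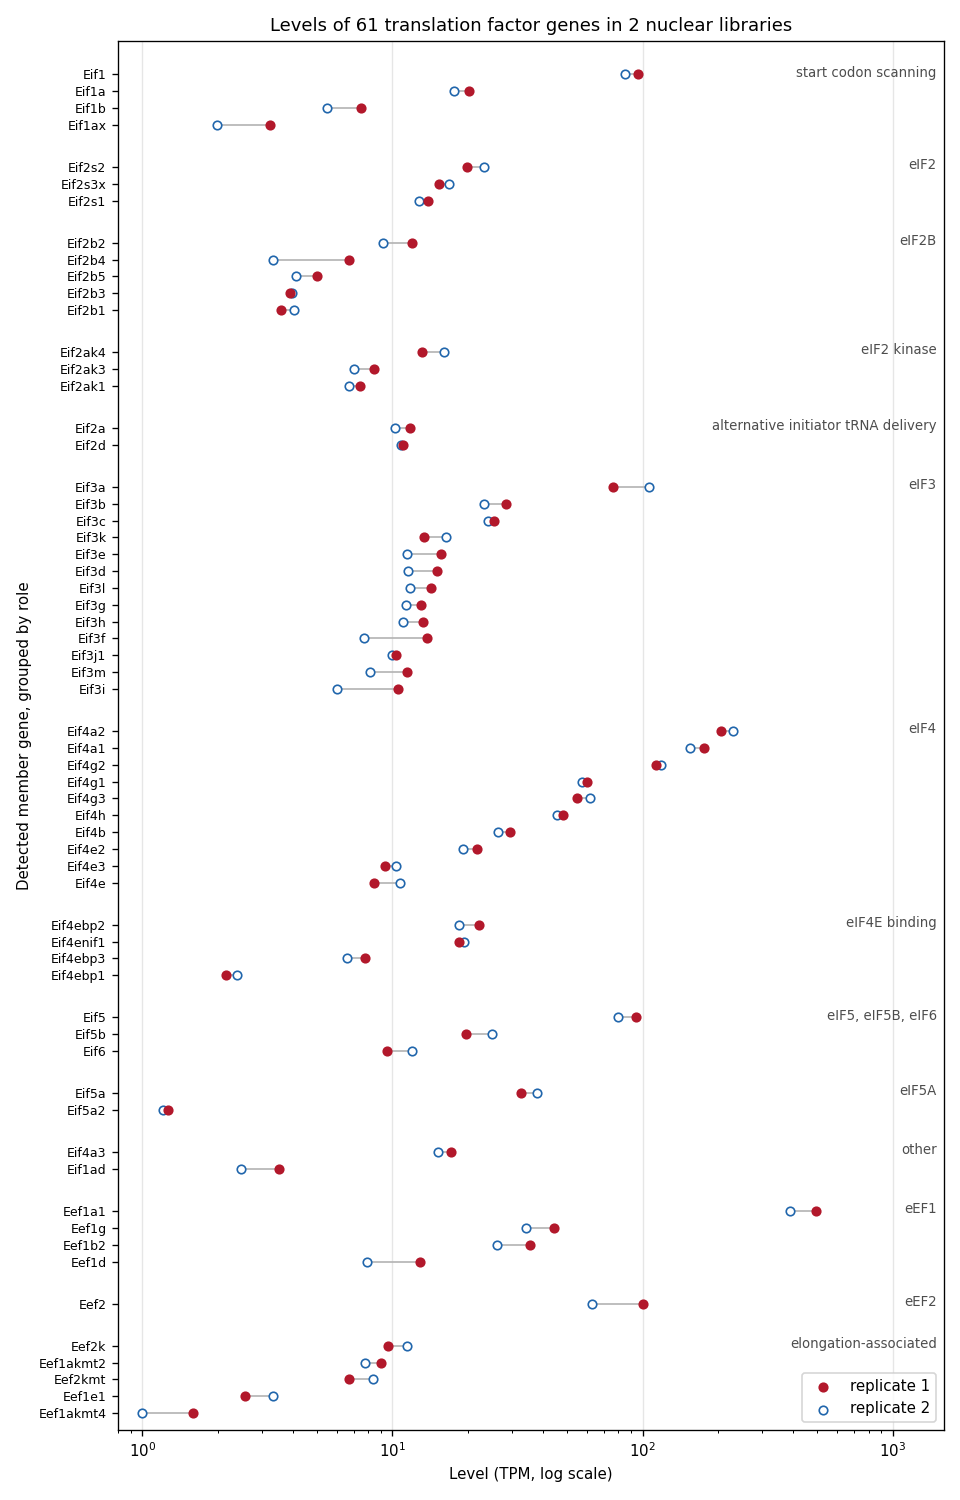
Level of each of the 61 detected genes in TPM (log axis), grouped by role, with replicate 1 as filled red points and replicate 2 as open blue points joined by a line. Eef1a1 stands highest at 495 TPM in replicate 1 and 388 in replicate 2, Eif4a2, Eif4a1 and Eif4g2 follow by mean level, and eIF2B subunits lie between 3.32 and 11.9 TPM.

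Of the genes for scanning and start codon recognition, Eif1 was the highest, with 95.5 TPM in replicate 1 and 85.2 in replicate 2 (chromosome 11, 100319885 to 100322096, mm10). Its close relative Eif1b had 7.49 TPM in replicate 1 and 5.47 in replicate 2. For eIF1A, which acts beside eIF1 in scanning, Eif1a had 20.1 TPM in replicate 1 and 17.7 in replicate 2. The X-linked copy Eif1ax was lower, at 3.25 TPM in replicate 1 and 1.98 in replicate 2. In both pairs the copies did not overlap over the libraries, and the lower copy stood at 0.071 ± 0.01 times Eif1 for Eif1b and 0.14 ± 0.035 times Eif1a for Eif1ax.

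The 3 detected subunits of eIF2 lay close together. Eif2s1, whose product eIF2α is the target of the stress kinases, had 13.8 TPM in replicate 1 and 12.7 in replicate 2. Eif2s2, encoding eIF2β, had 19.9 TPM in replicate 1 and 23.3 in replicate 2. Eif2s3x, encoding the GTP-binding eIF2γ, had 15.3 TPM in replicate 1 and 16.8 in replicate 2. The order of the 3 was the same in both libraries, with Eif2s2 highest and Eif2s1 lowest. It did not hold in replicate 1 of the second quantification, where Eif2s3x was lowest. There it had 7.03 TPM, against 8.81 for Eif2s1 and 8.83 for Eif2s2. Subunits of eIF2B, the exchange factor that reloads eIF2 with GTP and that phosphorylated eIF2α blocks, were lower in both libraries. Eif2b2 stood highest with 11.9 TPM in replicate 1 and 9.19 in replicate 2. The others, the catalytic Eif2b5 included, ranged over 3.60 to 6.68 TPM in replicate 1 and 3.32 to 4.11 TPM in replicate 2, so the 4 lower subunits did not separate beyond the spread. In replicate 2 of the second quantification Eif2b2 was not the highest, with 5.77 TPM against 6.71 for Eif2b4.

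Among kinases of eIF2α, Eif2ak4 (GCN2, which senses uncharged tRNA) had 13.2 TPM in replicate 1 and 16.0 in replicate 2. Eif2ak3 (PERK, the kinase of endoplasmic reticulum stress) had 8.45 TPM in replicate 1 and 7.04 in replicate 2, and Eif2ak1 (HRI, the haem-regulated kinase) had 7.40 TPM in replicate 1 and 6.68 in replicate 2. Eif2ak4 was above Eif2ak3 and Eif2ak1 in both libraries, and the levels of Eif2ak3 and Eif2ak1 overlapped. The kinase gene Eif2ak2, left out by the rule, was not compared. Eif2a and Eif2d, whose products can bring initiator tRNA to ribosomes without eIF2, had 11.8 and 11.0 TPM in replicate 1 and 10.2 and 10.8 TPM in replicate 2.

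All 13 detected eIF3 genes exceeded 5 TPM in both libraries, and most lay within a narrow range. eIF3 is the large scaffold that holds the initiation complex on the small subunit. Eif3a, encoding its largest subunit, stood apart with 76.3 TPM in replicate 1 and 106 in replicate 2. Eif3b had 28.3 TPM in replicate 1 and 23.2 in replicate 2, and Eif3c had 25.4 TPM in replicate 1 and 24.1 in replicate 2; both encode subunits of the conserved core. Every other detected subunit was below these 3 in both libraries, between 10.3 and 15.7 TPM in replicate 1 and between 5.98 and 16.4 TPM in replicate 2. Eif3a exceeded Eif3b by 2.69-fold in replicate 1 and 4.58-fold in replicate 2, although the proteins join the same complex.

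Genes of the cap-binding machinery held the largest summed level of any role, 726 TPM in replicate 1 and 733 in replicate 2 over 10 detected genes. Eif4a2 (chromosome 16, 23107444 to 23114136) had 206 TPM in replicate 1 and 230.5 in replicate 2, and Eif4a1 (chromosome 11, 69666936 to 69672423) had 176 TPM in replicate 1 and 154 in replicate 2. Both encode the RNA helicase eIF4A, and Eif4a2 was above Eif4a1 in both libraries, by 1.17-fold in replicate 1 and 1.49-fold in replicate 2. That order did not hold in replicate 1 of the second quantification, where the ratio was 0.97, against 1.46 in replicate 2. Eif4a3, a helicase of the exon junction complex and not of initiation, had 17.2 TPM in replicate 1 and 15.2 in replicate 2.

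Of the eIF4G scaffolds, Eif4g2 was highest, with 113 TPM in replicate 1 and 118 in replicate 2. Its product, also called DAP5, lacks the site for eIF4E and serves initiation that does not use eIF4E. Eif4g1 had 59.9 TPM in replicate 1 and 57.3 in replicate 2, and Eif4g3 had 54.9 TPM in replicate 1 and 61.4 in replicate 2. Eif4g1 and Eif4g3 overlapped, whereas Eif4g2 stood above Eif4g1, by 2.98-fold in replicate 1 and 2.79-fold in replicate 2 by the second quantification, against 1.88-fold and 2.06-fold by the first. The helicase cofactor genes Eif4h and Eif4b had 48.3 and 29.4 TPM in replicate 1 and 45.3 and 26.4 TPM in replicate 2.

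The cap-binding subunit was the lowest part of eIF4F. Eif4e had 8.42 TPM in replicate 1 and 10.7 in replicate 2. Eif4e2, whose product 4EHP binds the cap without binding eIF4G and represses translation, had 21.7 TPM in replicate 1 and 19.1 in replicate 2. Eif4e3, an atypical cap-binding relative, had 9.34 TPM in replicate 1 and 10.3 in replicate 2 and overlapped Eif4e. By the second quantification Eif4e3 did not overlap Eif4e, at 0.50 times its level in replicate 1 and 0.41 times in replicate 2. Of the 4E-BP genes, whose products hold eIF4E inactive until mTOR phosphorylates them, Eif4ebp2 was highest with 22.3 TPM in replicate 1 and 18.4 in replicate 2. Eif4ebp1 was lowest with 2.16 TPM in replicate 1 and 2.39 in replicate 2, and Eif4ebp3 had 7.74 TPM in replicate 1 and 6.58 in replicate 2. This order depends on the quantification: Eif4ebp2 exceeded Eif4ebp1 by 1.39-fold in replicate 1 and 1.12-fold in replicate 2 by the second quantification, against 10.3-fold and 7.69-fold by the first, and Eif4ebp3 was the lowest in replicate 2 of the second. Eif4enif1, encoding the protein 4E-T that carries eIF4E into the nucleus, had 18.5 TPM in replicate 1 and 19.3 in replicate 2.

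Of the late initiation factors, Eif5, the activator of GTP hydrolysis by eIF2, had 94.1 TPM in replicate 1 and 79.8 in replicate 2. Eif5b, the factor of subunit joining, had 19.7 TPM in replicate 1 and 24.97 in replicate 2. Eif6, which keeps free large subunits from joining too early, had 9.48 TPM in replicate 1 and 11.9 in replicate 2. The 3 genes kept this order in both libraries. Eif5a, the hypusine-bearing factor that helps ribosomes past difficult peptide bonds, had 32.7 TPM in replicate 1 and 37.7 in replicate 2.

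Among elongation genes, Eef1a1 (chromosome 9, 78478449 to 78489151) had 495 TPM in replicate 1 and 388 in replicate 2. The exchange-factor subunits that recharge eEF1A were far lower. Eef1g had 44.3 TPM in replicate 1 and 34.3 in replicate 2, Eef1b2 had 35.4 TPM in replicate 1 and 26.1 in replicate 2, and Eef1d had 12.9 TPM in replicate 1 and 7.94 in replicate 2. Eef1a1 stood 11.2 ± 0.086 times above Eef1g and 14.4 ± 0.62 times above Eef1b2 (SD, n = 2 libraries), whereas its ratio to Eef1d varied more, at 43.6 ± 7.39. By the second quantification the ratio to Eef1g was 8.47 in replicate 1 and 7.28 in replicate 2. The ratio to Eef1d was closer between the libraries there than by the first, at 33.0 in replicate 1 and 34.9 in replicate 2. Eef2, the translocase gene (chromosome 10, 81176631 to 81182498), had 101 TPM in replicate 1 and 62.6 in replicate 2. Eef2k, encoding the kinase that inhibits eEF2, had 9.59 TPM in replicate 1 and 11.4 in replicate 2. The remaining detected genes of this group, Eef1akmt2, Eef2kmt, Eef1akmt4 and Eef1e1, the last encoding a scaffold protein of the tRNA synthetase complex, ranged from 1.60 to 9.01 TPM in replicate 1 and from 1.00 to 8.34 TPM in replicate 2.

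The annotation divides the transcripts of each gene by type. Retained intron transcripts hold sequence that other transcripts of the gene splice out, transcripts of nonsense-mediated decay carry an early stop codon, and processed transcripts lack an open reading frame. Over the initiation factors, protein-coding transcripts held 61.0% of TPM in replicate 1 and 58.8% in replicate 2, against 72.9% and 72.0% over all 10123 detected protein-coding genes in the same libraries. Retained intron transcripts held 28.1% of initiation factor TPM in replicate 1 and 26.9% in replicate 2, against 19.6% and 19.9% over all those genes. Over the elongation factors, protein-coding transcripts held 71.8% in replicate 1 and 66.0% in replicate 2, and retained intron transcripts 20.0% in replicate 1 and 22.7% in replicate 2.

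Those sums are led by a few abundant genes. The median share of protein-coding transcripts per gene was 71.8% for initiation factors and 56.8% for elongation factors, against 70.4% over all detected protein-coding genes. With the grouping by symbol, the order of initiation and elongation was thus the opposite of that in the sums. With the grouping by role it was not: the medians were 66.8% for initiation and 73.1% for elongation, and the shares in the sums 57.6% and 71.4% (means of the libraries). Protein-coding transcripts held under 50% of TPM in both libraries in 10 of 61 detected genes, against a background share of 21.1%. In the transcript tables of the second quantification it was 18 of the 61, and no background was computed there. Retained intron transcripts exceeded protein-coding ones in 7 of the 61 genes, against 14.5%, and 11 genes had protein-coding transcripts only, against 21.7%. The share also depended on the scale, since retained intron transcripts are often short: of expected counts they held 16.3 ± 0.47% in initiation factors, 9.91 ± 1.05% in elongation factors and 15.2 ± 0.49% over all those genes.

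**Figure D2:**
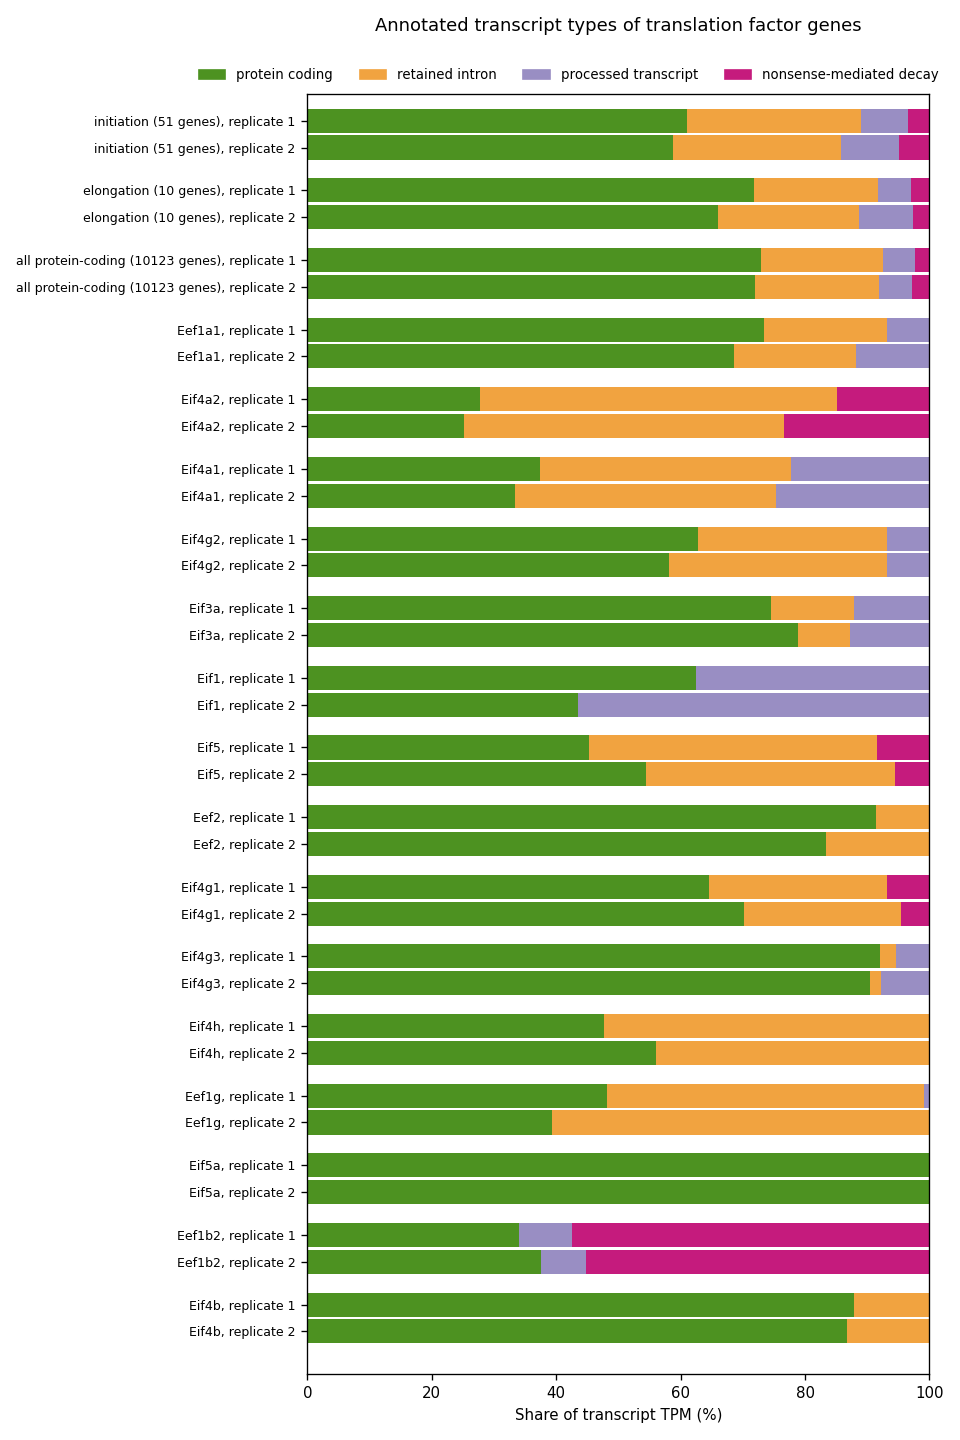
Share of transcript TPM (%) by annotated type, in each library, for the 51 initiation and 10 elongation genes summed, for all detected protein-coding genes summed, and for the 15 highest translation factor genes. Eif4a2 and Eif4a1 hold 27.7% and 37.4% in protein-coding transcripts in replicate 1, whereas Eif5a holds 100%.

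Eif4a2 had the lowest mean share of protein-coding transcripts, with 27.7% in replicate 1 and 25.2% in replicate 2, although in replicate 1 Eif2b2 was lower at 26.8%. Retained intron transcripts held 57.4% of its TPM in replicate 1 and 51.4% in replicate 2, and transcripts of nonsense-mediated decay 14.9% in replicate 1 and 23.4% in replicate 2. In Eif4a1 the protein-coding share was 37.4% in replicate 1 and 33.3% in replicate 2, and the retained intron share 40.3% in replicate 1 and 42.1% in replicate 2. Counting protein-coding transcripts only, the helicase genes no longer stood apart: Eif4a2 had 57.2 TPM in replicate 1 and 58.0 in replicate 2, and Eif4a1 had 65.8 TPM in replicate 1 and 51.4 in replicate 2. On that measure Eef2, with 92.0 TPM in replicate 1 and 52.2 in replicate 2, and Eif3a, with 56.9 TPM in replicate 1 and 83.7 in replicate 2, overlapped them. Eif4g2, with 70.9 TPM in replicate 1 and 68.6 in replicate 2, was above both helicase genes in both libraries. Eef1a1 remained far higher, with 363 TPM in replicate 1 and 266 in replicate 2.

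The other genes with a low protein-coding share differed in what replaced it. Eef1b2 held 57.5% in replicate 1 and 55.3% in replicate 2 as transcripts of nonsense-mediated decay, and Eif2d held 42.6% in replicate 1 and 46.9% in replicate 2 as such transcripts. Eif2b2 held 73.2% in replicate 1 and 60.0% in replicate 2 as retained intron transcripts. Eif3l, a peripheral eIF3 subunit gene, held 59.7% in replicate 1 and 53.9% in replicate 2 as retained intron transcripts, and Eef1g held 50.98% in replicate 1 and 60.65% in replicate 2. In Eif4a3 processed transcripts held 56.7% in replicate 1 and 60.1% in replicate 2. Some genes were not stable between libraries: Eif6 had 0% of processed transcripts in replicate 1 and 50.96% in replicate 2, and Eif4e had 0% of retained intron transcripts in replicate 1 and 46.2% in replicate 2. At the other end, Eif5a, Eif3c, Eif4ebp2, Eif1a and Eif2b5 had protein-coding transcripts only.

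At a mean of 1 TPM or more, 78 retained intron transcripts of 33 genes were found, and they summed to 542 TPM in replicate 1 and 500 in replicate 2. Of these, 37 span the whole of an intron that a coding transcript of the gene removes within its reading frame. The most abundant by the mean of the libraries was Eef1a1-202, with 36.4 TPM in replicate 1 and 24.9 in replicate 2, which keeps 1 coding intron of 77 bases. Eif4a1-202 had 30.9 TPM in replicate 1 and 28.9 in replicate 2 and keeps 4 coding introns with 1394 bases in all. Eef1a1-203 had 28.0 TPM in replicate 1 and 29.6 in replicate 2 and keeps another intron of Eef1a1, of 85 bases. In replicate 2 Eif4a1-202 and Eef1a1-203 were above Eef1a1-202. The borders of these introns, and of introns in Eif4a2 and Eif5 that hold a small nucleolar RNA, are printed to show the intron ends that the retained intron transcripts keep and coding transcripts of the gene remove; the transcripts differ in other parts of their length too. Each line runs 5′ to 3′ on the gene's strand, with exon bases in capitals and intron bases in lower case, read from the GENCODE M21 transcript sequences (mm10).
Eef1a1-202, chr9:78479775-78479851, minus strand, 5′ border: AAGTGCTAATgtaagtgacttttaaggtag
Eef1a1-202, 3′ border: attgactgcctgtgttttagATGCCTTGGT
Eef1a1-203, chr9:78479193-78479277, minus strand, 5′ border: CACTGCTCAGgtgacacatttttaagatag
Eef1a1-203, 3′ border: atacacgctgtttttcttagGTGATTATCC
Eif4a1-202, chr11:69669247-69670132, minus strand, 5′ border: GGCTCAGCAGgtgagattggtgtgtttcct
Eif4a1-202, 3′ border: agatgttcttctgcattcagATACAAAAGG
Eif4a1-204, chr11:69668334-69668404, minus strand, 5′ border: GGAACGAGAGgtgaggcccagtgcaggagg
Eif4a1-204, 3′ border: cctgacttctgaatctccagGAGTGGAAGC
Eif4a2-218, chr16:23110724-23111125, plus strand, 5′ border: TGAGCGAGAGgtaattttgttacaagcttt
Eif4a2-218, 3′ border: ggaattttgtttgattttagGAGTGGAAGC
Eif4a2-211, chr16:23108852-23109119, plus strand, 5′ border: TGTATTAAAGgtaaaactctattgccgtta
Eif4a2-211, 3′ border: atgtatcctactttttttagGGTATGATGT
Eif5-208, chr12:111540573-111541705, plus strand, 5′ border: AACCCACCTGgtaagtctttttaataaatt
Eif5-208, 3′ border: aactcttcatttccctgtagAGAATAGTGA

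All 7 introns begin with gt and end with ag, the usual letters of spliced introns. The intron shown for Eif4a1-204 and that shown for Eif4a2-218 are followed by the same 10 exon bases in both helicase genes. In Eif4a2 that intron has 402 bases and holds the gene of the small nucleolar RNA Snora81, whereas in Eif4a1 it has 71 bases and holds none. Eif4a1-204 had 18.4 TPM in replicate 1 and 19.5 in replicate 2, and Eif4a2-218 had 16.5 TPM in replicate 1 and 21.4 in replicate 2. The intron of Eif4a1-202 has 886 bases and holds Gm22988, that of Eif4a2-211 has 268 bases and holds Snord2, and that of Eif5-208 has 1133 bases and holds Snora28.

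Small nucleolar RNAs (snoRNAs), which guide the modification of ribosomal RNA, are mostly cut out of introns, and translation genes are known as their hosts. Of the detected genes, 9, or 14.8%, hold a snoRNA gene on their strand, against 2.09% of detected protein-coding genes: Eif4a1, Eif4a2, Eif4g1, Eif4g2, Eif3a, Eif5, Eif2ak3, Eef1b2 and Eef2. In the 9 hosts retained intron transcripts held 35.1% of TPM in replicate 1 and 34.8% in replicate 2, against 19.1% and 19.3% in the 52 others. The hosts were uneven: by the mean of the libraries Eef1b2 had 0%, Eif3a 10.8% and Eef2 12.6%. The remaining hosts were above 19.3%, up to 54.4% in Eif4a2. Over all detected protein-coding genes the shares were 29.8% in replicate 1 and 31.3% in replicate 2 for 212 hosts, and 19.3% and 19.6% for the rest. Without its hosts, the initiation group had a retained intron share of 15.7 ± 0.22%, which is below that of all protein-coding genes. The elongation group without its hosts had 24.0 ± 1.14%, against 21.4 ± 1.91% with them. The host genes are also the abundant ones, with a median of 86.95 TPM against 10.95 TPM in the others, and the part of abundance in the share was not tested.

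Of the 78 retained intron transcripts 10 contain a snoRNA within an exon, and these summed to 129 TPM in replicate 1 and 131 in replicate 2, so most retained intron TPM came from transcripts with none. Levels of the snoRNAs themselves are uncertain here. Gm22988 in Eif4a1 had 547 counts in replicate 1 and 1217 in replicate 2, listed as 9175 TPM in replicate 1 and 27403 in replicate 2. By the second quantification it had 376 TPM in replicate 1 and 1749 in replicate 2. Gm26447 in Eif4a2 had 527 counts in replicate 1 and 101 in replicate 2, and its level in replicate 1 is listed as 0 TPM. Reads from a snoRNA and from a retained intron around it cannot be told apart by these tables.

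**Figure D3:**
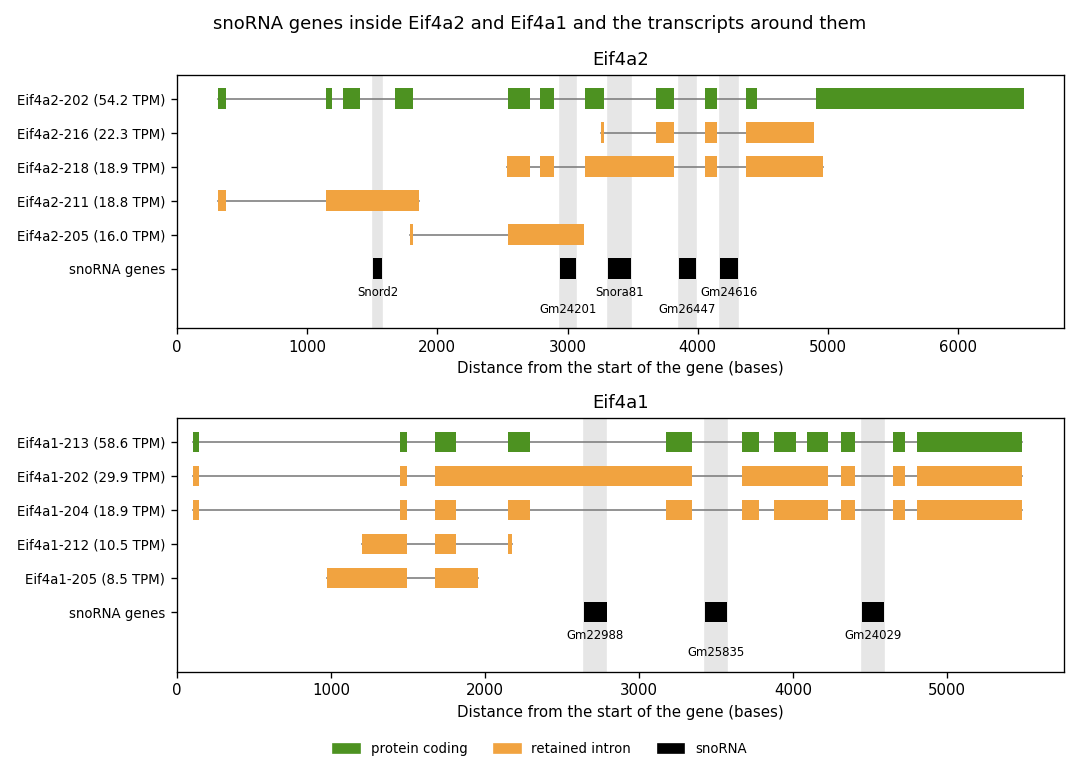
Exons of the most abundant protein-coding transcript and the 4 most abundant retained intron transcripts of Eif4a2 and Eif4a1 (mean TPM in brackets), with snoRNA genes in black, by distance in bases from the start of the gene. In Eif4a2-218, Eif4a2-211, Eif4a2-205 and Eif4a1-202 an exon covers a snoRNA gene, whereas in the other 4 retained intron transcripts none does.

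The libraries were compared on counts scaled by the trimmed mean of M-values (TMM), with a pseudocount of 1, over genes with a mean of at least 50 counts. The differences are log2 ratios of replicate 1 over replicate 2. Over 60 of the 68 genes the median difference was 0.07, against 0.01 over 11653 genes, and 38 of the 60 were higher in replicate 1, against 51.3% of all genes. The initiation factors had a median of 0.06 with 31 of 51 higher in replicate 1. The elongation factors had a median of 0.32 with 7 of 9 higher, and on TPM as deposited 6 of the 9 were. More than 1.5-fold higher in replicate 1 were 3 of the 60, near the background of 6.43%. None of the 60 was more than 1.5-fold lower, against 2.39%. No member was more than 2-fold apart in either direction, against 1.70% of genes higher and 0.438% lower.

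The 3 genes were Eif3f, Eef2 and Eif3i. Eif3f, encoding an eIF3 subunit with an MPN domain (chromosome 7, 108934417 to 108942951), had 483 counts in replicate 1 and 163 in replicate 2, or 13.7 TPM and 7.69 TPM, a difference of 0.83. Eef2 had 5983 counts in replicate 1 and 2223 in replicate 2, a difference of 0.69. Eif3i, encoding a subunit that binds eIF3b, had 253 counts in replicate 1 and 99 in replicate 2, a difference of 0.62. On counts of the second quantification the differences were 0.69 for Eif3f, 0.66 for Eef2 and 0.33 for Eif3i, so the call for Eif3i was not held there. Eif4ebp3 at 0.64 and Eif3j2 at −1.60 passed 1.5-fold on those counts. On TPM as deposited, where the median of all genes stood at 0.09, Eif2b4 and Eef1d also passed 1.5-fold, with differences of 0.83 and 0.63.

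At the other end, Eif5b stood at −0.47, Eif3a at −0.45, Eif3k, a small eIF3 subunit gene, at −0.43, Eef1e1 at −0.36 and Eif4a2 at −0.32. eIF3 subunits thus lay at both ends, with 10 of 13 higher in replicate 1 and a median of 0.16. All 4 detected eEF1 genes were higher in replicate 1, by 0.28 in Eef1a1 to 0.46 in Eef1b2, and they were higher under each scaling of the first tables and on counts of the second quantification. On TPM of the second quantification all 4 were lower in replicate 1, with a median difference of −0.14, but that scale put the median of all genes at −0.37. The 3 eIF2 genes were lower, from −0.31 to −0.03, but on TPM as deposited Eif2s1 was higher in replicate 1. The 4 genes of scanning were higher, by 0.08 to 0.41, and on counts of the second quantification 3 of the 4 were.

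**Figure D4:**
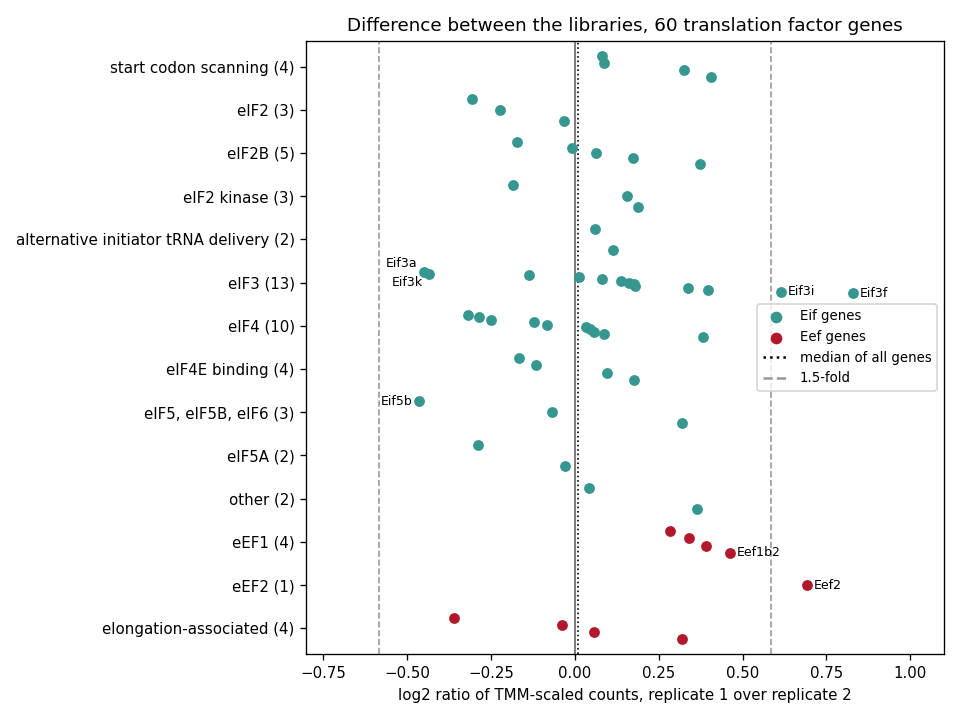
Difference between the libraries for 60 genes by role, as the log2 ratio of TMM-scaled counts of replicate 1 over replicate 2, with the number of genes in brackets. The dotted line is the median of all genes at 0.01 and dashed lines mark 1.5-fold; Eif3f, Eef2 and Eif3i lie beyond it and all 4 eEF1 genes lie right of 0 on these counts, but not on TPM of the second quantification.

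The deposited tables give an interval for a second estimate of each level, the posterior mean TPM, of a confidence level that the sources used here do not give. The posterior mean lay inside in all 68 genes, whereas the TPM printed above lay outside in 6 genes in replicate 1 and 12 in replicate 2, Eef1a1 among them. In 13 of the 60 genes the interval of replicate 1 lay wholly above that of replicate 2, against 19% of genes, and in 3 it lay wholly below, against 4.82%. The 13 comprised 9 initiation and 4 elongation factors (Eef1a1, Eef2, Eef1g and Eef1b2). For Eef2 the bounds were 92.8 to 99.2 in replicate 1 and 54.7 to 62.5 in replicate 2. The 3 genes below were Eif4a2, Eif3a and Eif5b, and for Eif3a the bounds were 70.2 to 76.3 in replicate 1 and 91.9 to 105 in replicate 2. These intervals cover the assignment of reads within a library and not the spread between cultures.

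Other RNAs also differed between the libraries. Of the 8 macrophage markers 7 were higher in replicate 1, with a median difference of 0.58, and Lyz2, the lysozyme gene, stood at 0.81. The amounts of RNA used also differed, and in bulk RNA fewer cells of a type and less RNA per cell cannot be told apart. The part of either in the differences of the translation genes was not tested. Of 36 other translation genes, which cover termination, poly(A) binding, mTOR signalling, hypusine synthesis and mitochondrial factors, all were detected, and 20 were higher and 16 lower in replicate 1 with a median of 0.01. Pabpc1, the main poly(A)-binding protein gene, had 97.1 TPM in replicate 1 and 146 in replicate 2, a difference of −0.22. Both genes of hypusine synthesis, which modifies eIF5A, were higher in replicate 1, at 0.31 for Dhps and 0.79 for Dohh, whereas Eif5a itself stood at −0.29. The largest difference in the list was 1.29 for Ppp1r15a, encoding the stress-induced subunit (GADD34) that brings phosphatase to eIF2α, with 50.2 TPM in replicate 1 and 21.9 in replicate 2.

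Many mRNAs of the translation machinery begin with C and a run of pyrimidines, the 5′ terminal oligopyrimidine motif, through which mTOR and LARP1 control them. The annotated start was therefore searched in the RefSeq promoter table (GRCm38.p6), in the direction of transcription only, for a C followed without a break by at least 4 bases that are each C or T. Of the 68 genes 52 had an entry, and 3 of these, or 5.77%, had such a run exactly at the start, against 2.71% of protein-coding genes with an entry. Without Eif2c5, which is not protein-coding, it was 2 of 51, or 3.92%. With the run allowed to begin up to 5 bases to either side, 15 of 52, or 28.8%, had it, against 21.8%. Of the following windows, each of 15 bases before and 15 from the annotated start, those of Eif3f and Eif2s3x have a C at the start inside such a run, in that of Eef1a1 the run begins before the start and spans it, and that of Eef2 has none; capitals mark the run.
Eif3f, chr7:108934400-108934429, plus strand: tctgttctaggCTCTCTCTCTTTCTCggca
Eif2s3x, chrX:94212637-94212666, minus strand: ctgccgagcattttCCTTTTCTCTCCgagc
Eef1a1, chr9:78481710-78481739, minus strand: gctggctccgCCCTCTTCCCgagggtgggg
Eef2, chr10:81176616-81176645, plus strand: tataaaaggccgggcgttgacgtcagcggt

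The genes with the run at the start differed from each other between the libraries, with 0.83 for Eif3f and −0.22 for Eif2s3x, and the third, Eif2c5, had too few counts. The run is a match of letters in the annotated window, and starts used in these cells were not measured. Genes with a run within 5 bases had a median difference of 0.16 over 13 genes, against 0.06 over 35 without, and all protein-coding genes had 0.02 with and 0.00 without. With a run of 4 or more bases, C included, exactly at the start, the order was the other way round, at −0.01 over 4 genes with it and 0.06 over 44 without.

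The second quantification of the same libraries gave lower levels for nearly all of these genes. Among the 41 members averaging 10 TPM or more, the second stood below the first in 40 in replicate 1 and in 37 in replicate 2. Their median log2 ratio of second over first was −0.98 in replicate 1 and −0.38 in replicate 2, against −0.82 and −0.29 over 5233 protein-coding genes in those libraries. In replicate 1 alone, 17 of the 41 were more than 2-fold lower by the second, but none was in both libraries, against 0.459% of protein-coding genes and 1.93% of all genes, and none was more than 2-fold higher in both, against 0.401% and 0.671%.

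The genes farthest apart were Eef1b2, with log2 ratios of −1.30 in replicate 1 and −0.71 in replicate 2, Eif4ebp2 with −1.41 and −0.60, Eef1a1 with −1.24 and −0.76, and Eef2 with −1.28 and −0.65 in those libraries. Eef1a1 had 209 TPM in replicate 1 and 230 in replicate 2 by the second quantification, against 495 TPM and 388 TPM by the first, so on the TPM scale the library with the higher level was not the same in both quantifications. At the other end, by the mean ratio, were Eif2a with 0.24, Eef2k with 0.03, Eif4enif1 with −0.02 and Eif4g2 with −0.13. Below 10 TPM, Eif4ebp1 had 6.05 TPM in replicate 1 and 10.8 in replicate 2 by the second quantification, against 2.16 TPM and 2.39 TPM by the first. Eif4e1b had 7.96 TPM in replicate 1 and 7.51 in replicate 2 by the second, while it is listed at 0 by the first, and so its detection depends on the quantification.

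**Figure D5:**
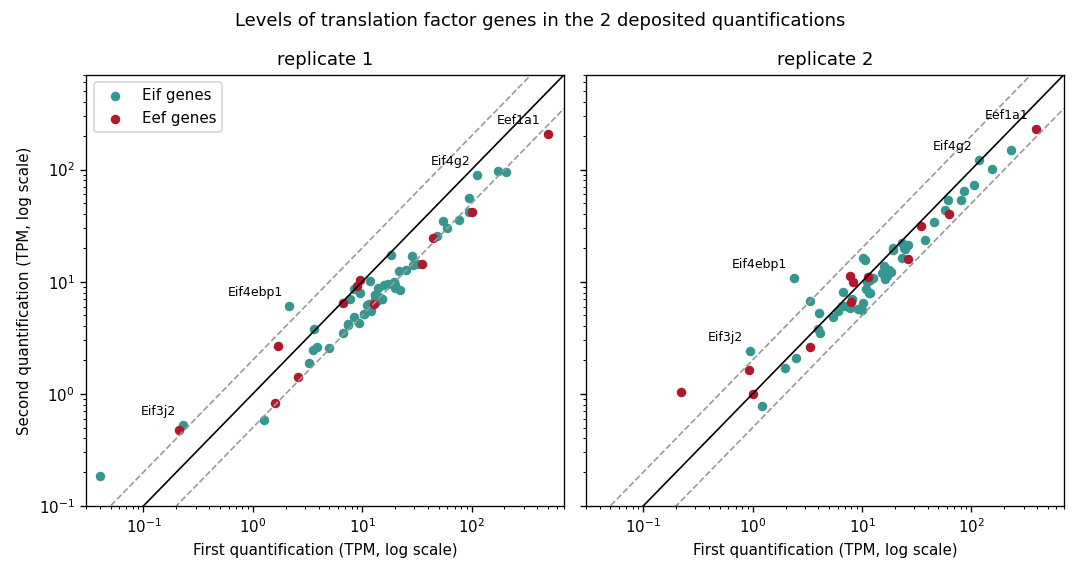
Level of each gene by the second (vertical) against the first quantification (horizontal), in TPM on log axes, for replicates 1 and 2; the solid line marks equal levels and dashed lines 2-fold. Most genes lie below the solid line, more so in replicate 1, and Eif4ebp1 lies above the upper dashed line in both libraries.

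How far reads can be assigned to a single gene varied among the 68. As a measure, the share of 31-base stretches of a gene's transcripts that occur in transcripts of another gene, on either strand, was counted. It was 94.9% for Eif3j2, with 93.95% of its stretches found in Eif3j1. For Eif3j1 it was 53.6%, with 38.06% of its stretches found in Eif3j2, so the separate levels of both genes are uncertain. It was 51.5% for Eef1a1, shared with 28 other genes and mostly with pseudogenes, and 47.6% for Eef1g, also with pseudogenes. For Eif4ebp3 it was 66.4%, shared with an annotated gene that overlaps it on the same strand. Eif3d shared 40.2%, mostly with Gm17638, which overlaps it on the opposite strand. How strand was handled is not given in the sources used here, and genes overlapped on the opposite strand are uncertain to that extent. Besides Eif3d these include Eif5b (overlapped by Rev1), Eif4a2 (by Rfc4), Eef1b2 (by Ndufs1) and Eif3j1 (by Spg11). Eif2b4 (by Snx17), Eef2kmt (by Alg1), Eif1ad (by Banf1) and further members are also among them. The helicase genes shared 31.1% for Eif4a1 and 19.6% for Eif4a2, Eef2 shared 21.2%, and Eif3a shared 0.08%, so that its separate level does not rest on such assignment. Of the genes with over 1.5-fold differences between libraries, Eif3f shared 0.35% and Eif3i 2.63%.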

How the data were processed

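Members, roles and gene lists were chosen with earlier results of these data known. For each library the authors deposited gene and transcript tables and a further transcript table, called the second quantification. Per the file headers these give expected counts and TPM (GENCODE M21, mm10). Which programs made them is not given in the sources used here. Column names match RSEM and, for the second quantification, kallisto, whose estimated counts and TPM were summed per gene. The bounds of the deposited TPM intervals are a signal that is never negative. Isoform percentages deposited by the authors were not used: shares came from transcript TPM.

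Expected counts were rounded only for the scaling factors of edgeR 4.0.16 (TMM) and DESeq2 1.42.0 (R 4.3.3), over genes that had 10 counts or more in each library; the step was tested on simulated data. Entries that name no annotated gene, 1.18% of counts in replicate 1 and 0.405% in replicate 2, were left out. Genes were named by rule: the highest and lowest members, subunits of each complex, paralogs, and those farthest apart between libraries, between quantifications and by transcript type. A planned protein comparison of paralogs was replaced, after the files were seen, by shared 31-base stretches. Python 3.11.15, numpy 2.4.6 and pandas 2.3.3 were used.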

Additional observations from a re-analysis of the deposited data

How the results depend on the processing

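Of 61 detected members, 51 to 64 were detected under the alternatives, and 61 or 62 with either library alone. The medians of initiation and elongation were 9.22 and 10.4 TPM by the second quantification, 42.1 and 34.9 TPM after rescaling to protein-coding genes, and 12.3 and 8.475 TPM without a filter; elongation stood at 11.6 TPM by posterior mean and at 34.9 TPM by role. With each library alone they ranged over 11.7 to 13.7 TPM and 9.88 to 11.2 TPM. Between libraries, the median difference of elongation was 0.20 on counts of the second quantification. It was 0.19 in the 4 genes with under 10% shared 31-base stretches, an alternative added after seeing the data. The 3 genes over 1.5-fold higher became 5 on deposited TPM and 5 without the count filter. Over 1.5-fold lower was 1 gene without that filter and 1 gene on counts of the second quantification. Retained intron shares of initiation and elongation were 16.3% and 9.91% of counts. In the second tables they were 28.8% and 23.6%, against 22.6% over all detected protein-coding genes. Without snoRNA hosts (added after seeing the data) they were 15.7% and 24.0%. Single libraries gave 26.9 to 28.1% and 20.0 to 22.7%. The 10 genes with under 50% protein-coding TPM became 18 in the second tables, 0 at under 25%, and 16 without replicate 1 or 15 without replicate 2, since either library alone is a weaker criterion. Members over 2-fold lower by the second quantification numbered 12 at 1.5-fold, 0 without replicate 1 and 17 without replicate 2; 1 was higher at a mean of 1 TPM. The 3 starts with a run became 5 with runs of 4 and 15 within 5 bases. The initiation and elongation median differences and the 13 single-gene differences kept their sign under the settings above that retained them. Those settings used scaled counts of either quantification or deposited TPM of the first. On TPM of the second quantification 55 of the 60 genes were lower in replicate 1, with a median of −0.38. That scale put 10424 of 11653 genes lower, with a median of −0.37. Over all 60 genes compared, the sign changed in 10 on deposited TPM of the first quantification. It changed in 8 on counts of the second quantification and in 0 with DESeq2 size factors. Of small groups, the median of eIF4 (−0.03) was 0.02 and that of eIF5A (−0.16) was 0.01 on counts of the second quantification. On those counts that of eIF4E binding (−0.01) was 0.06 and that of elongation-associated genes (0.01) was −0.02. The elongation-associated median was −0.25 on deposited TPM. The causes were not tested. No paired analysis was possible because there is 1 group.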
